A study of Drosophila melanogaster with 5 samples.

Results

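The genes described here encode subunits of the proteasome in Drosophila melanogaster, read in larval hemocytes of 5 genotypes. They were chosen by symbol alone: every gene with a probe set annotated to 1 gene and a symbol that begins Prosalpha, Prosbeta, Rpn or Rpt followed by a number. The rule gave 40 of the 11982 genes named on the array, of which 26 were canonical subunits and 14 were testis-type paralogs, whose symbols carry a T or an R after the number. Each of the 40 was read by 1 probe set, so no member has a second reading on an array, and 6 canonical and 2 testis-type genes have a probe set named _s_at or _a_at, which can match several transcripts. The canonical members cover 6 of the 7 listed alpha ring subunits, 6 of 7 in the beta ring and 4 of 6 ATPases. They also cover 3 of 4 other base subunits and 7 of 9 lid subunits, so the particle is not complete here. Of 16 listed testis-type paralogs, 14 are covered. A further probe set, annotated to several genes, was left out.

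The proteasome degrades proteins that carry ubiquitin chains. Its core is a barrel of outer alpha rings, which gate the entry, and inner beta rings, whose beta1, beta2 and beta5 subunits hold the proteolytic sites. A regulatory cap sits on the barrel: its base holds a ring of Rpt ATPases that unfold the substrate and the Rpn subunits that bind ubiquitin, and its lid holds Rpn11, which cuts the ubiquitin chain off. In Drosophila many subunits have a duplicated gene that is used mainly in the male germ line. Hemocytes, the circulating blood cells, engulf debris and microbes and secrete much of the basement membrane.

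There were 5 arrays, 1 for each genotype, all from hemocytes of larvae in the third instar, pooled from 200 to 300 animals (1.0 to 1.3 µg of total RNA, which was amplified before labelling). The control was the W1118 strain. The mutants were spen(GE10359), a loss-of-function line with a P-element in the untranslated region of split ends, then the E(spl) stock BL199 (written E(spl)rvl in the labels) and the Su(H) stock BL417 (Su(H)l(417)), both labelled loss of function, and EGFR(1564), stock BL1564, labelled gain of function with no allele named. The labels do not say whether larvae were homozygous, and nothing says that the mutant stocks share the control's genetic background. With 1 array for a genotype there is no replicate, no test can be made, and every difference below describes these arrays and not the genotypes. All 4 differences from the control share the 1 control array.

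Values are log2 levels as deposited, so a difference of 1 is 2-fold. Of the hemocyte markers, Hml, a coagulation protein, read 13.68 to 14.38 over the 5 arrays, and NimC1, a phagocytosis receptor, 12.81 to 13.53. The informative spen probe set stood at 4.90 on the spen array and at 9.14 to 10.75 on the others. The 3′ probe sets of actin, eIF-4a and GAPDH exceeded their middle probe sets on average by 2.51 on Su(H), 2.10 on E(spl), 1.84 on EGFR, 1.69 on spen and 1.53 on the control. Bacterial hybridisation spikes differed from the control array by a median of 0.40 on spen and −0.49 on EGFR. The spread of differences between bright probe sets of 1 gene, over 27 genes, was a pooled SD of 0.30 in spen, 0.37 in Su(H), 0.29 in E(spl) and 0.37 in EGFR. Over all 1094 genes with several probe sets, dim ones included, it was 0.47, 0.52, 0.51 and 0.44 in that order.

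All 26 canonical members stood far above background on every array, between 9.44 and 12.91, where the highest Bacillus control probe set, a measure of background, lay between 4.28 and 4.78. For 20 of the 26 genes the highest of the 5 readings was on the spen array, and for 20 the lowest was on Su(H) or E(spl). The median level over the 26 genes was 11.47 on the control array, 11.74 on spen, 11.21 on E(spl), 11.15 on Su(H) and 11.46 on EGFR. The median difference from the control was 0.36 in spen (SD over genes 0.25), −0.22 in Su(H) (SD 0.27), −0.19 in E(spl) (SD 0.28) and −0.02 in EGFR (SD 0.25). Over all genes that passed the level filter (at least 4.50, the median of all levels, on 1 of the arrays compared) the medians were 0.04, −0.03, 0.01 and −0.01 in that order. No canonical member differed from the control by 2-fold in any mutant. In the spen comparison 2.70% of genes past the filter were higher and 14.6% lower by 2-fold, for Su(H) 6.98% and 14.9%, for E(spl) 6.49% and 15.4%, and for EGFR 4.37% and 10.5%.

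**Figure D1:**
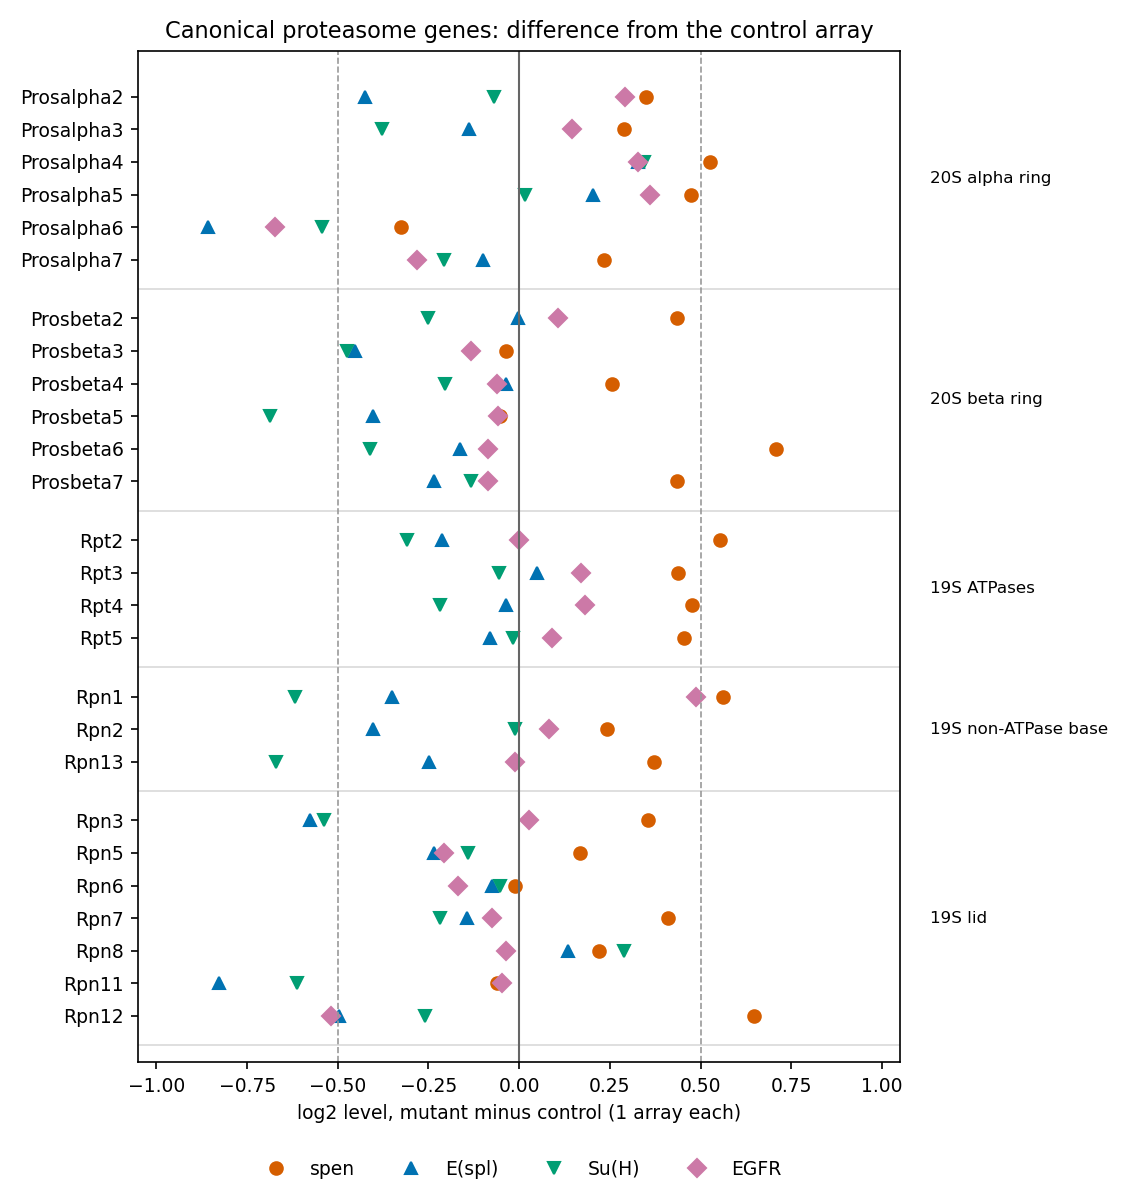
Difference in log2 level from the control array (x axis) for the 26 canonical proteasome genes (y axis, grouped by place in the particle), with 1 point for each mutant array and dashed lines at 0.5 in either direction. In 21 of the 26 genes the spen point lies above 0, and none of the points reaches 1 in size.

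Of the 26 canonical genes, 21 were above the control in spen, against 53.7% of all genes past the filter (50.4% for E(spl), 47.4% for Su(H), 48.9% for EGFR). At the lower limit of 0.5 log2 units (1.41-fold), 5 were higher in spen, namely Prosalpha4, Prosbeta6, Rpt2, Rpn1 and Rpn12, and none was lower; among all genes past the filter 14.1% were higher and 23.3% lower by that amount. In E(spl), 22 of the 26 lay below the control. Past 0.5, none was higher (background 17.8%) and 3 were lower (background 24.8%): Prosalpha6, Rpn3 and Rpn11. In Su(H), 23 lay below the control, none was higher past 0.5 (background 17.7%) and 6 were lower (background 26.6%), Prosbeta5, Rpn1 and Rpn13 beside the genes lower in E(spl). In EGFR, 11 lay above and 14 below, none was higher past 0.5 (background 14.9%) and Prosalpha6 and Rpn12 were lower (background 22.7%). In E(spl), Su(H) and EGFR the counts of lower genes were under the background of all genes past the filter.

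Bright genes as a whole were slightly higher on the spen array. Among the 1389 genes whose mean level lay in the range of the canonical members (10.05 to 12.65), the median difference from the control was 0.09 in spen, −0.05 in Su(H), 0.01 in E(spl) and −0.01 in EGFR, with SDs over genes of 0.45, 0.60, 0.57 and 0.53 in that order. The canonical SD of 0.25 to 0.28 was smaller in each. Of these genes 10.1% were higher and 7.34% lower past 0.5 in spen, and for E(spl) 12.9% and 14.9%, for Su(H) 10.9% and 18.9%, for EGFR 12.7% and 14.2%. The 6 of 26 canonical genes lower in Su(H) were slightly above the 18.9% share, while the counts in E(spl) and EGFR were under theirs. After centring on the genes of this level range, the canonical median was 0.27 in spen, −0.16 in Su(H), −0.20 in E(spl) and −0.02 in EGFR. The spikes were also brighter on the spen array (0.40, above), and their part in the spen median was not tested.

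**Figure D2:**
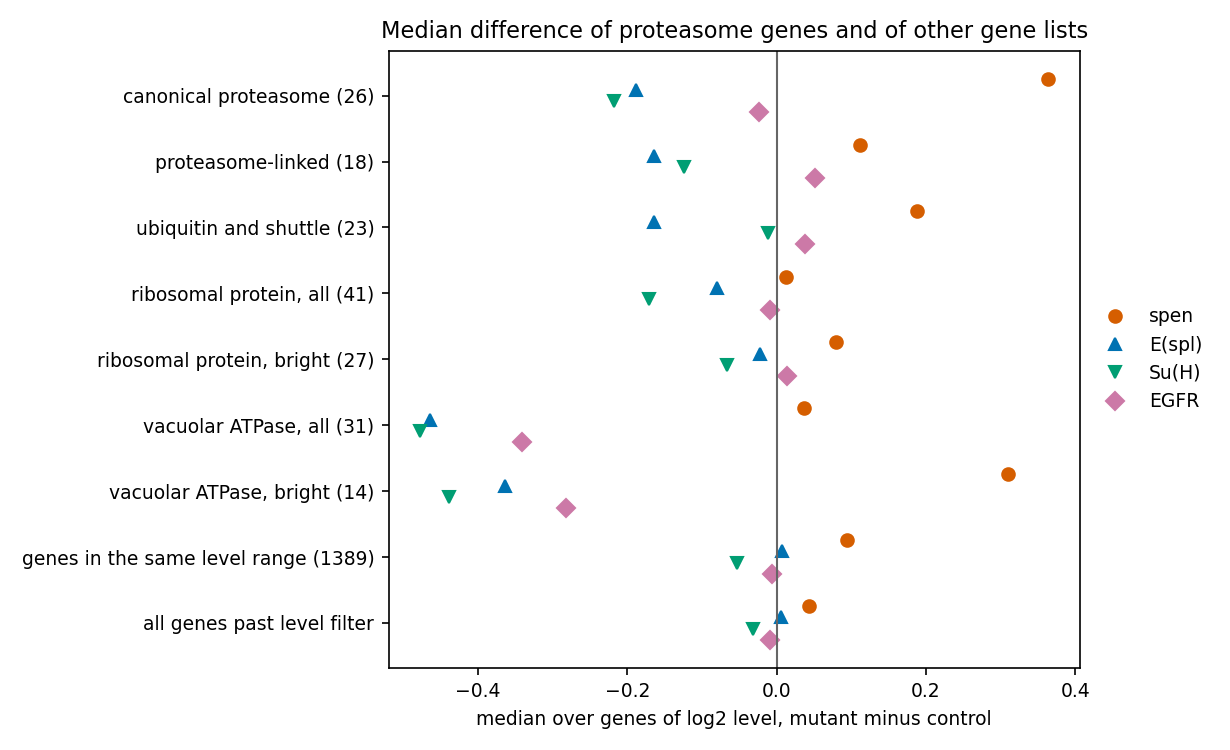
Median over genes of the difference in log2 level from the control array (x axis) for proteasome genes and other lists (y axis, number of genes in brackets), with 1 point for each mutant array. Bright genes of a list have a mean level at or above that of the dimmest canonical member. The spen medians of the canonical proteasome (0.36) and the bright vacuolar ATPase genes (0.31) lie close together, while all vacuolar ATPase genes have 0.04.

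The same order appeared without the control array as reference. All 26 canonical genes were higher on the spen array than on the E(spl) array, with a median of 0.52, against 52.7% of all genes above the filter on any array and 58.3% of genes in the same level range. On the spen array 25 of 26 were higher than on Su(H) (background 50.7%, or 62.0% in the same level range) and 25 of 26 higher than on EGFR (background 47.4%, or 57.7%). The exceptions were Rpn8, a scaffold subunit of the lid, against Su(H) and Rpn11 against EGFR. Set against the mean of the 3 other stocks, the spen array was higher for 26 of 26 genes (background 48.2%, or 60.7%), with a median of 0.42 (SD over genes 0.23) against 0.13 for genes in the same level range. It was higher by at least 0.5 for 9 genes (background 17.8%, or 23.7%) and lower by that amount for none (background 20.6%, or 12.7%). Rpn12 alone was higher by 2-fold (background 6.39%), and none was lower by 2-fold (background 8.36%). The spen array gave the highest of the 5 readings for 20 canonical genes (background 28.1%), the control array for 5 (background 21.5%) and the Su(H) array for 1 (background 15.0%), while EGFR (background 16.9%) and E(spl) (background 18.4%) gave it for none. The lowest reading lay on the Su(H) array for 12 genes (background 18.9%), on E(spl) for 8 (background 19.8%), on EGFR for 4 (background 16.7%) and on the control for 2 (background 21.3%). Of the genes in the same level range, 37.6% had their highest reading on the spen array and 27.2% their lowest on the Su(H) array.

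Between the E(spl) and Su(H) arrays the canonical genes were split, with 12 higher and 14 lower on Su(H) and a median of −0.05. EGFR lay between spen and these arrays, with 20 of 26 genes above E(spl) (median 0.16) and 19 above Su(H) (median 0.27). The 3′ excess of the control RNAs was also largest on Su(H) and next on E(spl), and its part in the lower levels there was not tested.

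**Figure D3:**
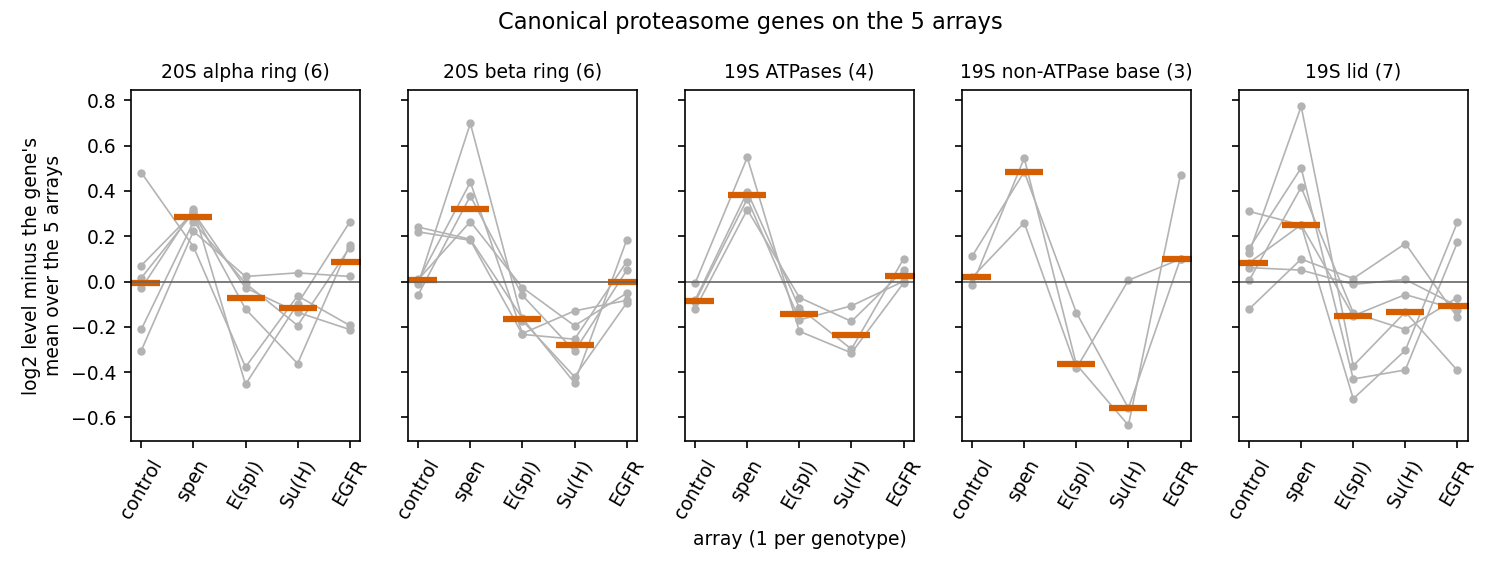
Log2 level of each canonical gene minus its own mean over the 5 arrays (y axis) on each array (x axis), in 1 panel for each group of subunits with the number of genes in brackets; grey lines join the readings of 1 gene and orange bars are medians. The median bar is highest on the spen array in every panel.

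The alpha ring had median differences from the control of 0.32 in spen, −0.14 in Su(H), −0.12 in E(spl) and 0.22 in EGFR. Prosalpha4, an alpha subunit of the core, was read at 11.77 on the control array, 12.30 on spen, 12.10 on E(spl), 12.11 on Su(H) and 12.10 on EGFR. It was above the control on all 4 mutant arrays, most in spen (difference 0.53). Prosalpha6 went the other way, at 11.74 on the control array, 11.41 on spen, 10.88 on E(spl), 11.20 on Su(H) and 11.07 on EGFR. The control reading was the highest of the 5, and E(spl) was lowest, with a difference of −0.86 (0.551-fold), the largest in size of any canonical gene.

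Prosalpha5 was at 10.50 on the control array, 10.98 on spen, 10.71 on E(spl), 10.52 on Su(H) and 10.87 on EGFR. It resembled Prosalpha4 in having its lowest reading on the control. Prosalpha2 was highest on spen (difference 0.35) and lowest on E(spl) (−0.42), and Prosalpha3 was highest on spen (0.29) and lowest on Su(H) (−0.38). Prosalpha7 was highest on spen (0.23) and lowest on EGFR (−0.28).

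The beta ring had medians of 0.34 in spen, −0.33 in Su(H), −0.20 in E(spl) and −0.07 in EGFR, and all 6 genes were below the control in both E(spl) and Su(H). Of the subunits with proteolytic sites, beta1 was not analysed here; the others are beta2, with trypsin-like activity, and beta5, with chymotrypsin-like activity. Prosbeta2 was at 11.35 on the control array, 11.78 on spen, 11.34 on E(spl), 11.10 on Su(H) and 11.45 on EGFR. Spen was highest, and the E(spl) reading was equal to the control to within 0.01. Prosbeta5 was at 12.45 on the control array, 12.40 on spen, 12.05 on E(spl), 11.77 on Su(H) and 12.40 on EGFR. Spen, EGFR and control were within 0.06 of each other, and the low readings were those of E(spl) (−0.40) and Su(H) (−0.69).

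Prosbeta6 had the largest positive difference among the 26 canonical genes in spen. This structural beta subunit, known in flies for dominant temperature-sensitive alleles, was at 10.998 on the control array, 11.71 on spen, 10.84 on E(spl), 10.59 on Su(H) and 10.91 on EGFR. The spen reading stood alone, 0.71 above the control (1.63-fold), while the other 4 lay within 0.41 of each other. Prosbeta3 was at 12.24 on the control array, 12.20 on spen, 11.79 on E(spl), 11.77 on Su(H) and 12.11 on EGFR. Like Prosbeta5, it was lower in E(spl) and Su(H) and not higher in spen. Prosbeta7 was at 11.65, 12.08, 11.41, 11.51 and 11.56 on the same arrays in that order, and Prosbeta4 differed from the control by 0.26 in spen and −0.20 in Su(H).

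The spread over genes in spen was smallest for the ATPases. The 4 measured Rpt genes differed from the control by 0.44 to 0.56 in spen (median 0.47, SD over genes 0.05), by −0.21 to 0.05 in E(spl), by −0.31 to −0.02 in Su(H) and by 0.00 to 0.18 in EGFR. Rpt2, whose tail helps to open the core's gate, was at 11.12 on the control array, 11.68 on spen, 10.91 on E(spl), 10.82 on Su(H) and 11.12 on EGFR. The control and EGFR readings were equal, spen was the highest and Su(H) the lowest. Rpt3 was at 11.44 on the control array, 11.88 on spen, 11.49 on E(spl), 11.38 on Su(H) and 11.61 on EGFR. Rpt4 was at 11.50 on the control array, 11.98 on spen, 11.47 on E(spl), 11.28 on Su(H) and 11.68 on EGFR. Rpt5 was at 11.62 on the control array, 12.07 on spen, 11.54 on E(spl), 11.60 on Su(H) and 11.71 on EGFR. In Rpt3, Rpt4 and Rpt5 alike, spen was highest and EGFR next.

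The 10 Rpn subunits of the base and lid had medians of 0.30 in spen, −0.24 in Su(H), −0.30 in E(spl) and −0.04 in EGFR. Of the base subunits, Rpn1, a docking platform for ubiquitin-like proteins, was at 10.06 on the control array, 10.62 on spen, 9.71 on E(spl), 9.44 on Su(H) and 10.54 on EGFR. Its range over the arrays (1.18) was the widest of the canonical genes, with spen and EGFR high and Su(H) low. Rpn13, a ubiquitin receptor, was at 10.63 on the control array, 11.00 on spen, 10.38 on E(spl), 9.95 on Su(H) and 10.61 on EGFR. Rpn2, the largest scaffold of the base, was at 12.67 on the control array, 12.91 on spen, 12.27 on E(spl), 12.66 on Su(H) and 12.75 on EGFR. Su(H) was thus the low array for Rpn1 and Rpn13 and E(spl) for Rpn2.

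In the lid, Rpn11, the deubiquitinase, was at 11.52 on the control array, 11.46 on spen, 10.70 on E(spl), 10.91 on Su(H) and 11.48 on EGFR. It was low in E(spl) (difference −0.83, 0.563-fold) and Su(H) (−0.61) and close to the control in spen and EGFR. Rpn8, which pairs with Rpn11, was at 11.98 on the control array, 12.20 on spen, 12.11 on E(spl), 12.27 on Su(H) and 11.94 on EGFR. Rpn8 was thus slightly above the control where Rpn11 was low, by 0.14 in E(spl) and 0.29 in Su(H). Both values are under the limit of 0.5 and under the spread between bright probe sets of 1 gene. Rpn12, a lid subunit added late in assembly, was at 10.17 on the control array, 10.82 on spen, 9.68 on E(spl), 9.91 on Su(H) and 9.65 on EGFR. Spen was well above and the 3 other mutants below the control, with differences of 0.65 in spen, −0.26 in Su(H), −0.498 in E(spl) and −0.52 in EGFR.

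Rpn3, another lid scaffold, was at 10.83 on the control array, 11.19 on spen, 10.26 on E(spl), 10.30 on Su(H) and 10.86 on EGFR. E(spl) and Su(H) were low together. Rpn6 was the steadiest member, with a range of 0.17 over the 5 arrays. Rpn5 and Rpn7 were highest on spen, with differences of 0.17 and 0.41.

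Several cell type markers moved between the same arrays, and their part in the proteasome differences was not tested. On spen, all 6 salivary gland markers were higher by 2-fold or more (median 4.45), and the log2 of their summed level was 14.09, against 9.57 on the control array and 7.64 to 9.59 on the others. For the 12 proliferation genes it was 11.56 on spen, 12.43 on the control array and 13.54 to 13.65 on the others. This sum was lowest where the proteasome genes were highest, although 1 of the 12 was above the control in spen. For the 10 plasmatocyte genes it was 16.02 on spen and 16.46 to 16.74 on the others, and 2 of the 10 were above the control in spen. The summed lamellocyte genes read 12.71 on spen and 12.73 on the control array (median difference over genes 0.25), 13.27 on E(spl), 13.50 on EGFR and 13.97 on Su(H). The 6 muscle genes summed to 11.71 on Su(H) and 11.41 on E(spl), against 9.19 on EGFR, 8.26 on the control array and 8.09 on spen. This sum, which the brightest genes dominate, was highest where the proteasome genes were lowest. In E(spl) 1 of the 6 muscle genes was below the control, and in Su(H) also 1. The 6 crystal cell genes read 14.98 on spen, 15.63 on the control array and 16.09 to 16.14 on the others. The 4 fat body genes read 13.98 on the control array, 13.10 on spen, 12.94 on E(spl), 13.39 on Su(H) and 11.38 on EGFR. In pooled hemocytes, fewer cells of a type and less RNA in each cell cannot be told apart.

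Genes that act with the proteasome were taken from a list of assembly factors, activators and regulators, of which 18 of 27 entries were measured. Their medians were 0.11 in spen, −0.12 in Su(H), −0.16 in E(spl) and 0.05 in EGFR. Past 0.5, 3 were higher and 1 lower in spen, against 1 and 4 on Su(H), 1 and 1 on E(spl), and 2 and 0 on EGFR. Of all genes past the filter, 14.1% were higher and 23.3% lower in spen, 17.7% and 26.6% in Su(H), 17.8% and 24.8% in E(spl), and 14.9% and 22.7% in EGFR, so these counts were near or under the background. Sem1, a small subunit of the lid whose symbol lies outside the rule, was at 10.79 on the control array, 11.14 on spen, 10.30 on E(spl), 10.17 on Su(H) and 10.47 on EGFR. Its order of arrays, spen highest and Su(H) lowest, was that of many canonical members.

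REG was low on spen instead. This gene encodes an activator that caps the core in the nucleus in place of the ATPase cap and works without ubiquitin. It was at 11.39 on the control array, 10.92 on spen, 12.23 on E(spl), 11.73 on Su(H) and 12.05 on EGFR. Spen was the lowest of the 5 and E(spl) the highest, with differences of −0.47 and 0.84. The summed proliferation genes were likewise lowest on spen, and their part in the REG differences was not tested.

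The widest range in the list was that of CG8858, which the annotation gives no other name. It was at 7.40 on the control array, 9.36 on spen, 4.84 on E(spl), 9.01 on Su(H) and 8.42 on EGFR. It was 3.88-fold higher than the control in spen and higher in Su(H) (difference 1.61) and EGFR (1.03). On E(spl) it was low (−2.56), close to the background reading of that array (4.33). Keap1, which holds the Nrf-type factor cnc in check in the cytoplasm, was at 8.71 on the control array, 7.38 on spen, 8.44 on E(spl), 7.44 on Su(H) and 9.19 on EGFR. It was low in spen (−1.33) and Su(H) (−1.27). cnc itself, a known activator of proteasome genes, differed at its bright probe set by −0.23 in spen, 0.01 in Su(H), 0.30 in E(spl) and −0.32 in EGFR, and its partner maf-S by 0.18, −0.17, −0.28 and −0.12 in that order.

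Among the deubiquitinases bound to the cap, Uch-L5 was higher in spen (difference 0.58) and differed by 0.16 to 0.21 in the others. Usp14 was lower in Su(H) (−0.53) and differed by 0.04 in spen, −0.18 in E(spl) and −0.32 in EGFR. Pomp, the chaperone of core assembly, differed from the control by −0.16 to 0.14 over the mutants.

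**Figure D4:**
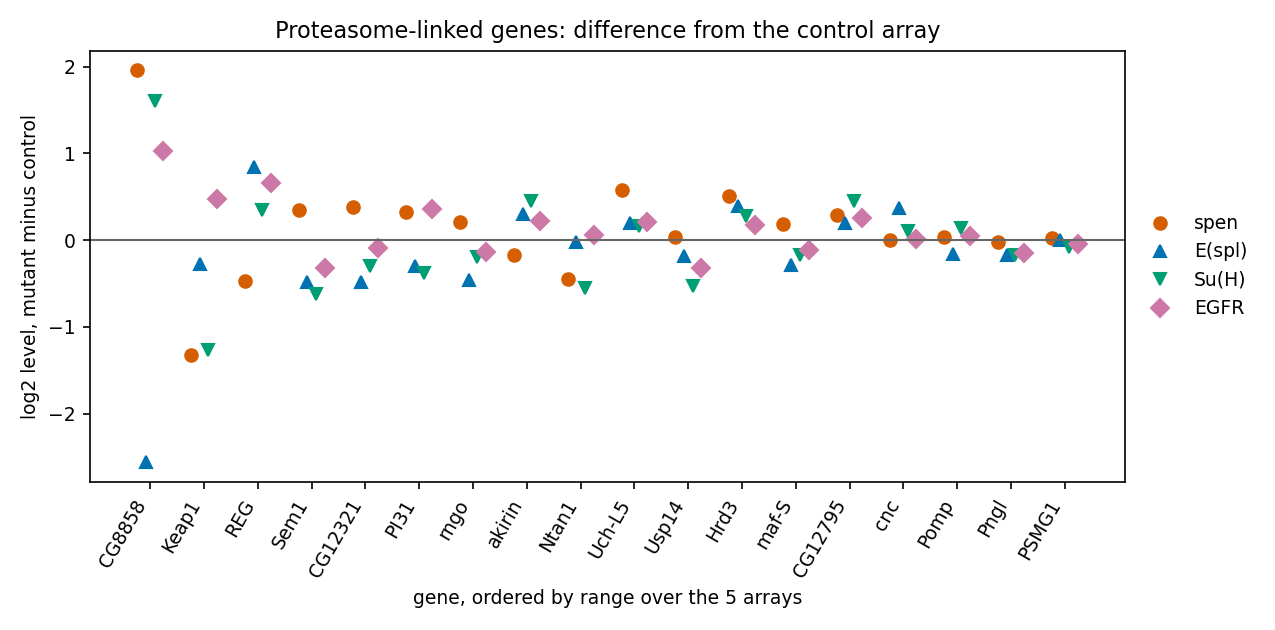
Difference in log2 level from the control array (y axis) for the 18 measured proteasome-linked genes (x axis, ordered by range over the 5 arrays), with 1 point for each mutant array. CG8858 spans −2.56 in E(spl) to 1.96 in spen, and REG is below 0 in spen alone.

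Another list held ubiquitin, activating enzymes of ubiquitin and ubiquitin-like proteins, conjugating enzymes, ligase parts, a deubiquitinase and factors that deliver substrates. Of its 29 entries 23 were measured, and Uba1, the activating enzyme of ubiquitin, was not among them. The medians were 0.19 in spen, −0.01 in Su(H), −0.16 in E(spl) and 0.04 in EGFR. Past 0.5, 2 were higher and none lower in spen, none higher and 4 lower in E(spl), 1 higher and 3 lower in Su(H), and 4 higher and 2 lower in EGFR. Against the same background, 14.1% to 17.8% higher and 22.7% to 26.6% lower over the mutants, these counts too were near or under it. The 2 genes higher in spen were Npl4 (0.74) and p47 (0.70), adaptors of TER94, an unfoldase that extracts ubiquitinated proteins and itself differed by 0.21. Usp5, which recycles free ubiquitin chains, was at 10.24 on the control array, 10.61 on spen, 9.11 on E(spl), 9.53 on Su(H) and 10.65 on EGFR. It was low in E(spl) (−1.13) and Su(H) (−0.71). Plap, another partner of TER94, was also low in E(spl) (−0.98). The ubiquitin ligase gene ari-1 was higher in EGFR (0.86) and Su(H) (0.60). ben, a ubiquitin-conjugating enzyme, was low in EGFR (−1.39) and E(spl) (−0.70). Ubi-p63E, a polyubiquitin gene, stayed within 0.28 of the control.

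Beside these, the 41 named cytoplasmic ribosomal protein genes had medians of 0.01 in spen, −0.17 in Su(H), −0.08 in E(spl) and −0.01 in EGFR. The 31 vacuolar ATPase genes had medians of 0.04, −0.48, −0.46 and −0.34 in that order. Many of the latter are dim. For the 14 whose mean level was at least that of the dimmest canonical member, a limit chosen after the data were seen, the medians were 0.31 in spen, −0.44 in Su(H), −0.36 in E(spl) and −0.28 in EGFR. These bright genes were thus high on spen beside a canonical median of 0.36. Against the mean of the other 3 stocks their spen median was 0.61, with all 14 between 0.33 and 1.33, where the canonical median was 0.42. For 27 bright ribosomal protein genes the medians were 0.08 in spen, −0.07 in Su(H), −0.02 in E(spl) and 0.01 in EGFR. The high readings on spen were therefore shared with bright vacuolar ATPase genes, and the differences between lists were not tested.

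The testis-type paralogs were dim. All 14 had their highest reading on the control array (background 21.5%). Being below it in all 4 mutants (background 21.4%) is the same result save for ties. Both background shares are over genes that reached the level filter on some array, which 4 of the 14 paralogs did not. Over the 14 genes the median difference was −1.62 in spen, −1.33 in Su(H), −1.56 in E(spl) and −0.60 in EGFR. These medians include readings at background. With each reading raised at least to the highest Bacillus control of its array they were −0.98 in spen, −1.33 in Su(H), −1.39 in E(spl) and −0.49 in EGFR, and the spen median was no longer the lowest. Of the 14, 10 passed the level filter, each on the control array where it was highest, so the counts over these 10 support nothing about a difference. The other 4 (Prosalpha3T, Prosalpha4T1, Prosbeta4R2 and Prosbeta5R2) were below the highest Bacillus control of each array, and no fold is given for them. Past 2-fold, 9 were lower in spen (background 14.6%), 9 in Su(H) (background 14.9%), 8 in E(spl) (background 15.4%) and 5 in EGFR (background 10.5%).

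Where a reading lay below the highest Bacillus control of its array, the fold against the control is given as a lower bound against that control probe set. Rpt3R, a paralog of the ATPase Rpt3, was at 8.04 on the control array, 5.46 on spen, 6.01 on E(spl), 6.31 on Su(H) and 7.99 on EGFR. It was 5.95-fold lower in spen, 4.08-fold lower in E(spl) and 3.31-fold lower in Su(H), and equal to the control in EGFR to within 0.05. Rpt4R, the paralog of Rpt4, was at 6.58 on the control array, 5.07 on spen, 4.83 on E(spl), 5.29 on Su(H) and 6.44 on EGFR. Rpn12R, the paralog of the lid subunit Rpn12, was at 6.22 on the control array, 4.48 on spen, 4.43 on E(spl), 4.83 on Su(H) and 5.60 on EGFR. Its spen reading was at background, which gives at least 2.71-fold lower. In these 3 genes the EGFR reading was the nearest to the control, while the lowest lay on spen for Rpt3R and on E(spl) for Rpt4R.

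Of the paralogs of core subunits, Prosbeta2R2, Prosalpha6T and Prosbeta5R1 were below the control in EGFR too. Prosbeta2R2 was at 7.71 on the control array, 5.95 on spen, 5.41 on E(spl), 5.80 on Su(H) and 6.60 on EGFR, and was 4.91-fold lower in E(spl). Prosalpha6T was at 6.83 on the control array, 4.53 on spen, 4.18 on E(spl), 4.70 on Su(H) and 4.98 on EGFR. It was lower by at least 4.12-fold in spen and at least 5.64-fold in E(spl), by 4.36-fold in Su(H) and by 3.59-fold in EGFR. Prosbeta5R1, a copy of the beta5 subunit, was at 6.50 on the control array, 3.75 on spen, 3.56 on E(spl), 4.23 on Su(H) and 4.85 on EGFR. Readings on spen, E(spl) and Su(H) were at background, which gives at least 3.29-fold, 4.51-fold and 4.69-fold lower.

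Prosbeta4R1 was at 5.74 on the control array and at 3.59 to 3.99 on the mutants, all at background, and was at least 1.94-fold lower in spen and at least 2.65-fold lower in E(spl). Prosbeta2R1 was at 5.44 on the control array, 4.12 on spen, 4.50 on E(spl), 4.35 on Su(H) and 4.61 on EGFR. Rpn13R was at 5.79 on the control array, 4.003 on spen and 4.41 to 4.62 on the others. Prosalpha4T2 was close to background throughout, at 5.10 on the control array and 4.44 to 4.75 on the mutants.

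**Figure D5:**
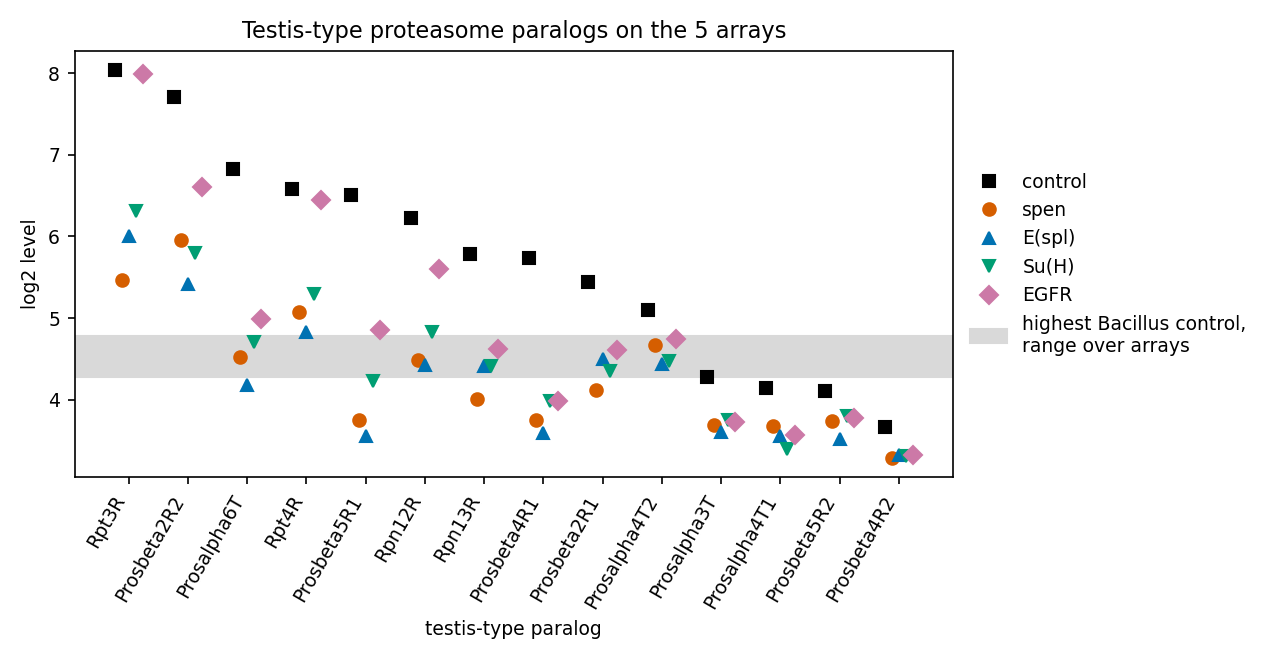
Log2 level (y axis) of the 14 testis-type paralogs (x axis, ordered by the control reading) with 1 point for each array; the grey band spans the highest Bacillus control probe set of the 5 arrays (4.28 to 4.78). The control square is the top point for every gene, and the EGFR point of Rpt3R and Rpt4R lies close below it.

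Most of the germ line and testis markers were also below the control in each mutant. Of 21 measured germ line and testis markers, 20 were above the highest Bacillus control on the control array, 9 on spen, 14 on E(spl), 16 on Su(H) and 19 on EGFR. The log2 of their summed level was 13.00 on the control array, 10.42 on spen, 10.41 on E(spl), 10.92 on Su(H) and 11.97 on EGFR. For the 14 paralogs it was 10.10, 8.32, 8.28, 8.55 and 9.43, the same order. betaTub85D, a tubulin of the male germ line, was at 11.48 on the control array, 8.57 on spen, 8.03 on E(spl), 9.20 on Su(H) and 10.25 on EGFR. An exception was bam, a germ cell differentiation gene, which was higher than the control in E(spl) (3.11), Su(H) (1.77) and EGFR (2.97). The part of these markers in the paralog differences was not tested, and the labels do not give the sex of the larvae.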

How the data were processed

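RNA of larval hemocytes was hybridised to 5 Affymetrix arrays, 1 for each genotype. The authors deposited log2 levels of 18952 probe sets (2.54 to 14.74). The submitters' processing notes name RMA and GCOS, with roles, versions and settings not given in the sources used here, so how far a general shift between arrays was removed is unknown. Depth does not apply; the number of arrays limits the precision.

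Of the probe sets, 183 control probe sets were left out, and 13647 with 1 annotated gene gave 11982 genes, each the mean of its probe sets (Python 3.11.15, pandas 2.3.3). Genes were named from the platform annotation, with list entries matched by symbol or synonym in the Release 6 gene table. Differences are mutant minus control. A gene was counted past 0.5 or 1 log2 units if 1 of both arrays reached 4.50. The functions were tested on simulated data.

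Groups came from the sample titles. There were no replicates and no test. Members and lists were chosen with earlier results of these data known. Values on all arrays were to be given for the largest differences of each subunit group in each mutant, the catalytic beta subunits and the paralogs past the filter, and at most 4 extreme genes of other lists were to be named. Pomp, cnc, maf-S, Uch-L5, Usp14, Npl4, p47, TER94, Ubi-p63E and bam were named after their values were seen. Promoter motifs and protein identities were not analysed here.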

Additional observations from a re-analysis of the deposited data

Results flagged for a closer look

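These results went in opposite directions from the control in 2 stocks, and no difference between stocks could be tested with 1 array each. The canonical proteasome median was 0.36 in spen and −0.22 in Su(H), 0.58 apart. The beta ring median was 0.34 in spen and −0.33 in Su(H), 0.68 apart. The Rpn subunits of base and lid had a median of 0.30 in spen against −0.30 in E(spl), 0.60 apart, and against −0.24 in Su(H), 0.54 apart. Rpn1 differed by 0.56 in spen and −0.62 in Su(H), 1.18 apart, and Rpn12 by 0.65 in spen and −0.52 in EGFR, 1.17 apart. CG8858 was 4.52 higher in spen than in E(spl), and E(spl) differed from Su(H) by −4.17 and from EGFR by −3.58. All of these share the single control array or a single array of the stock named.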

How the results depend on the processing

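The canonical median ran from 0.27 to 0.43 in spen, −0.27 to −0.16 in Su(H), −0.20 to −0.10 in E(spl) and −0.02 to 0.01 in EGFR over 9 other settings, and spen minus the mean of the 3 other stocks from 0.30 to 0.44. Some of these settings could not change the canonical medians, since each member has 1 probe set and stands far above background. They are the brightest probe set, no level filter, a level filter at 6 and leaving out probe sets below background. The settings for the differences from the control also include the mean of the other 3 mutants as reference, which is a different comparison. The count of canonical genes higher past 0.5 in spen (5) was 2 with renewed quantile scaling, 11 with arrays centred on their median, 9 against the mean of the other 3 mutants, where 1 passed 2-fold, and 2 when centred on genes of the same level range, a setting added after the data were seen. In EGFR, 1 was higher with quantile scaling, with median centring and against the other mutants, while 1 was lower with median centring and 0 against the other mutants. The ATPase median in Su(H) was −0.35 against the other mutants. The testis-type medians in spen, E(spl) and Su(H) were −1.26, −1.202 and −1.04 with quantile scaling. With a level filter at 6 they were −2.03, −2.16 and −1.82, and −0.86 in EGFR. Without probe sets below background they were −1.56 in Su(H), −1.91 in E(spl) and −0.97 in EGFR. Both settings kept only paralogs that passed on the control array, where each was highest, so these medians support nothing about a difference. With probe sets ending in a plain _at the testis-type medians were −1.41 in spen and −1.152 in E(spl). With levels raised to the Bacillus controls the spen median was −0.98. The vacuolar ATPase median in spen (0.04) was 0.31 over bright genes alone, a limit added after the data were seen. The setting with the other 3 mutants, by their mean, as the reference compares mutants with each other. The testis-type medians there were −0.10 in spen, −0.0024 in Su(H), −0.29 in E(spl) and 0.315 in EGFR. The sign differed from that of the main result in 71 values of single genes over all settings. A gene in 1 mutant is counted once for each setting that turned its sign. Of the 71 values, 56 were not called (small, or below the level filter, a limit set after the values were seen). The 15 called values all turned under the reference of the other 3 mutants. In EGFR they were 0.51 (Prosalpha6T), 0.29 (Prosbeta2R1), 0.88 (Prosbeta2R2), 0.21 (Prosbeta4R1), 1.01 (Prosbeta5R1), 1.02 (Rpn12R) and 0.34 (Rpn13R). In Su(H) they were 0.0761 (Prosalpha6), 0.14 (Prosalpha6T), 0.21 (Prosbeta4R1), 0.17 (Prosbeta5R1) and 0.0667 (Rpn13R). In E(spl) they were 0.14 (Prosbeta2R1) and 0.0700 (Rpn13R), and in spen 0.0163 (Prosbeta2R2). The lower readings of the paralogs are thus relative to the 1 control array. The filter settings also left out some paralogs, and causes of the changes between settings were not tested. No paired analysis was possible because each group has 1 array. Signal over background limits the paralogs, of which 4 could not be read.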
